A study of Mus musculus with 1 sample.

Results

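The cells described here were tumor cells of subcutaneous MC38 tumors with a low level of Col3a1 and few transcripts of Top2a and Mki67, called Col3a1-low cells below. They were selected on these measured values. A kept cell had at least 200 genes, at most 20% of its unique molecular identifiers (UMIs, each standing for 1 captured transcript molecule) in mitochondrial genes and at least 5000 UMIs. A tumor cell had at least 3 UMIs of Rhox5 and Shisal2b together, and per 10000 UMIs of the cell fewer than 3 of Tyrobp and Fcer1g and fewer than 2 of Col1a2. A Col3a1-low cell in turn had fewer than 10 UMIs of Col3a1 and fewer than 2 of Top2a and Mki67 per 10000. Of 5307 called cells, 3234 were kept, 1685 were tumor cells and 528 were Col3a1-low cells, which was 16.3% of the kept cells (exact Clopper-Pearson 95% interval 15.1% to 17.65%).

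MC38 is a transplantable mouse line derived from a colon carcinoma. The library pooled 5 tumors that grew in C57BL/6J mice of 4 to 6 weeks of age and was sequenced with 10x Genomics 3' v3.1 chemistry. Its genotype is labelled WT without the name of an shRNA, and it was taken as the shNTC control of the 2 pools that the methods describe. The other pool, with Atp6v0a1 knockdown, was not analysed here. The cells carry no tag of the tumor they came from, so there is 1 sample without replicates, no test between mice was possible, and no p-value is given. Levels are summed UMIs of a gene per 1000000 UMIs of a group of cells (CPM). Intervals are 95% intervals, exact Poisson for levels and ratios of levels, and cover counting error only.

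Tumors of this kind hold malignant cells next to host macrophages, fibroblasts and lymphocytes. Col3a1 encodes the chain of type III collagen, a fibrillar collagen that fibroblasts and cells of mesenchymal character secrete. Top2a, a DNA topoisomerase, and Mki67, a protein of the mitotic chromosome surface, are transcribed mainly from S phase to mitosis, while cyclin D1, the product of Ccnd1, acts with CDK4 and CDK6 in G1. Rhox5 is an X-linked homeobox gene of reproductive tissues that many mouse tumor lines transcribe, and Tm4sf1 encodes a small membrane protein with 4 membrane-spanning segments.

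In the GENCODE M21 annotation of GRCm38, Rhox5 (ENSMUSG00000095180) lies on chromosome X from 37804842 to 37808876, Shisal2b (ENSMUSG00000042655) on chromosome 13 from 104845283 to 104863893, Tm4sf1 (ENSMUSG00000027800) on chromosome 3 from 57285611 to 57301988 and Ccnd1 (ENSMUSG00000070348) on chromosome 7 from 144929931 to 144939925. The 250 bases before the RefSeq start (GRCm38.p6), in lower case, are shown for Shisal2b and Tm4sf1, the markers whose RefSeq start is also the annotated end of the gene on its minus strand.
Shisal2b, chr13:104863894-104864143, minus strand: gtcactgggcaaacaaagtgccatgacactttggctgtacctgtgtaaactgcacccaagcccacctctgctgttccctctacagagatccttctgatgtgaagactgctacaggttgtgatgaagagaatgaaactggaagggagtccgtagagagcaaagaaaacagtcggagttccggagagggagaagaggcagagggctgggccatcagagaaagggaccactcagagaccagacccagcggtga
Tm4sf1, chr3:57301989-57302238, minus strand: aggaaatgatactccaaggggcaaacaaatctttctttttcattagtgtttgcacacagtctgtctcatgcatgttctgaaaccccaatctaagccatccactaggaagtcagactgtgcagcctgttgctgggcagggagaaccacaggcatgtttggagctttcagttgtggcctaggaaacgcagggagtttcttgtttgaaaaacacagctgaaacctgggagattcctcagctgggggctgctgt
Neither window held a match to any of 5 motifs searched on both strands, so no letter is in capitals. These were AP-1 (TGACTCA, in 4.46% of 32851 promoter windows of this length), a TEAD motif (CATTCC, 12.6%), an E-box (CACGTG, 6.02%), a TATA motif (TATAAA, 12.4%) and a GC-box (GGGCGG, 32.7%). The Shisal2b window held 4 CpG dinucleotides and the Tm4sf1 window 1, against a median of 6 over all windows. The absence of a match says only that these letters are not in the window.

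Both limits cut through a continuous spread of cells. Among the tumor cells, 317 had fewer than 2.5 UMIs of Col3a1 per 10000, 272 had 2.5 to 5, 366 had 5 to 10, 378 had 10 to 20, 224 had 20 to 40 and 128 had 40 or more. Within 20% of the limit of 10, 109 cells lay below it and 96 above, and the nearest values were 9.97 and 10.02. Within 20% of the limit of 2 for Top2a and Mki67, 51 Col3a1-low cells lay below and 35 cells above. Of the Col3a1-low cells, 140 (26.5%) had 0 UMIs of both genes. Their Rhox5 and Shisal2b counts ran from 3 to 205 with a median of 40, and 38 cells had fewer than 10.

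**Figure D1:**
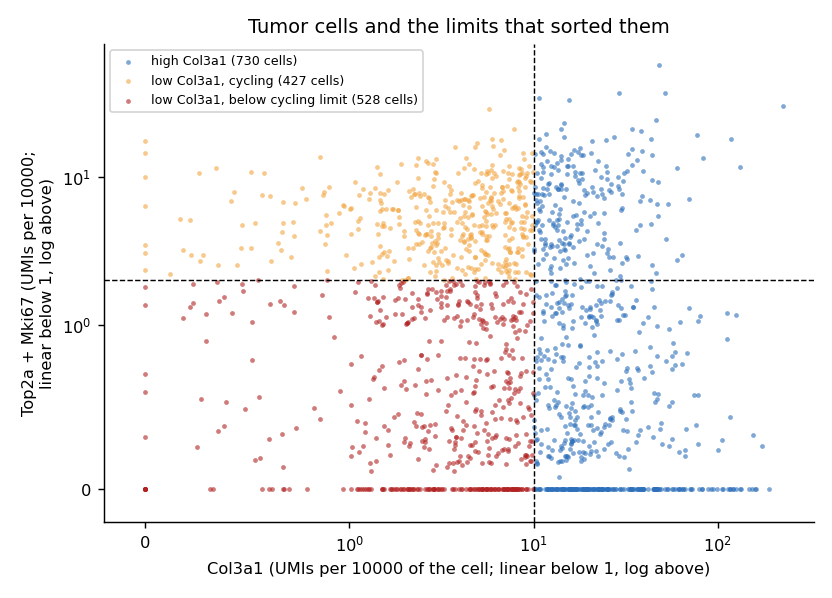
Col3a1 (x) and Top2a plus Mki67 (y) in each of the 1685 tumor cells, in UMIs per 10000 of the cell on axes that are linear below 1 and logarithmic above, with dashed lines at the limits of 10 and 2. Points are cells, and the 528 Col3a1-low cells fill the lower left without a gap to the 427 cycling or the 730 Col3a1-high cells.

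The Col3a1-low cells held 25313470 UMIs, with a lowest, median and highest depth of 5023, 47558 and 175967 UMIs per cell and a median of 5556.5 genes. They were compared with 1291 macrophages (kept cells with at least 10 UMIs of C1qa, C1qb and C1qc per 10000, median depth 10890 UMIs), with 730 tumor cells high in Col3a1 (median 34725.5 UMIs, 231 of them at or above the Top2a and Mki67 limit) and with 427 Col3a1-low cycling cells (at or above that limit, median 65646 UMIs). Since the cells were grouped by genes of the same library, all values below describe the groups and test nothing. Of the macrophages, 100 had 3 or more UMIs of Rhox5 and Shisal2b, so levels without these cells are given beside the first ones.

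The Col3a1-low cells were checked against 18 epithelial markers. None of them reached 10 CPM in the Col3a1-low cells, their summed level was 0.948 CPM, and 11 had 0 UMIs. Epcam, an adhesion molecule of epithelia, had 0 UMIs, which allows up to 0.119 CPM (3 UMIs over the group), and the keratin gene Krt8 had 3 UMIs. Genes of mesenchymal cells were abundant instead. Vim, the intermediate filament of such cells, was at 3442 CPM, and the transcription factors Twist1 at 61.5, Prrx1 at 50.6, Snai1 at 40.4 and Zeb1 at 35.0 CPM, whereas Tagln, an actin-binding protein of smooth muscle and myofibroblasts, had 0 UMIs. An epithelial identity was therefore not borne out by these markers, and the cells are named here only by the genes that chose them.

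Of the 4 marker genes, Rhox5 and Shisal2b entered the rule, which fixed their presence. Rhox5, which chose the cells, was at 727 CPM (716 to 737) in Col3a1-low cells, 651 in cycling cells, 714 in Col3a1-high cells and 99.9 in macrophages. Per cell thinned to 5000 UMIs, its lowest, median and highest counts were 0, 3 and 11, and 24 of 528 cells had 0. Shisal2b, the other gene that chose them and a member of the shisa-like family, was at 203 CPM (198 to 209), against 297 in cycling cells, 152 in Col3a1-high cells and 31.0 in macrophages. After thinning, Shisal2b had a median of 0 and a highest count of 10, and 267 of 528 cells had 0. The first gene was nearly level across the 3 groups of tumor cells, whereas the second differed between them.

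Tm4sf1 was at 1169.9 CPM (1157 to 1183) in Col3a1-low cells, 1302 in cycling cells, 799 in Col3a1-high cells and 146 in macrophages. Its thinned counts in Col3a1-low cells had a lowest, median and highest value of 0, 4 and 31, and those of Col3a1-high cells 0, 2 and 23, so that single cells of the groups overlapped widely. Ccnd1 was at 621 CPM in Col3a1-low cells, 707 in cycling cells, 348 in Col3a1-high cells and 272 in macrophages. Both genes were ordered alike, with cycling cells highest, Col3a1-low cells next and Col3a1-high cells below them, and every step in this order was larger than the counting error. The ratio to Col3a1-high cells was 1.46 (1.44 to 1.49) for Tm4sf1 and 1.785 (1.74 to 1.83) for Ccnd1. Among the Col3a1-high cells below the Top2a and Mki67 limit, 499 cells, Tm4sf1 was at 675 CPM, and the ratio was 1.73 (1.70 to 1.77). Ccnd1 was at 280.5 CPM in those cells, a ratio of 2.21 (2.14 to 2.29). Without the 100 macrophages that held tumor UMIs, the macrophage levels were 31.5 CPM for Rhox5, 11.8 for Shisal2b, 56.2 for Tm4sf1 and 244 for Ccnd1.

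**Figure D2:**
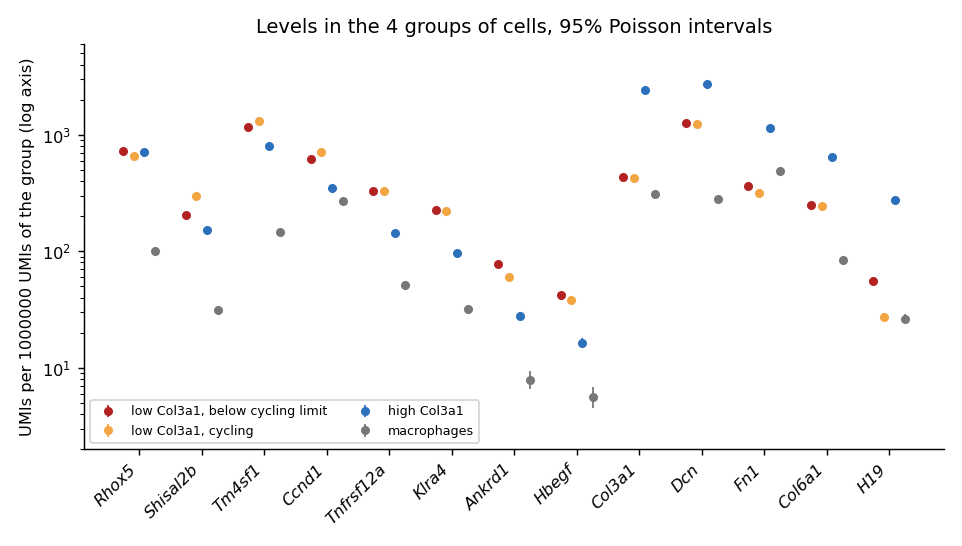
Levels of 13 genes in the 4 groups of cells, in UMIs per 1000000 of the group on a log axis, with 95% Poisson intervals that are often smaller than the points. Tm4sf1, Ccnd1, Tnfrsf12a, Klra4, Ankrd1 and Hbegf lie higher in Col3a1-low than in Col3a1-high cells, and Col3a1, Dcn, Fn1, Col6a1 and H19 lower.

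The most abundant transcripts of Col3a1-low cells that code for no ribosomal protein included Lgals1, encoding the lectin galectin-1, at 11031.5 CPM and S100a6, a calcium-binding protein, at 8434 CPM. Lgals1 had 0 cells without a UMI after thinning, with a lowest, median and highest count of 7, 55 and 197. The 83 ribosomal protein genes on the list together made up 308848 CPM, against 270564 in Col3a1-high cells and 186844 in macrophages.

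Against macrophages, 8287 genes with at least 10 CPM in either group were compared. Of these, 377 (4.55%) were at least 4-fold higher in Col3a1-low cells and 1077 (13%) at least 4-fold lower, with a median log2 ratio of 0.07. With the 100 macrophages that held tumor UMIs left out, 706 of 8324 genes (8.48%) were at least 4-fold higher and 1151 (13.8%) lower. Macrophages with high doublet scores, droplets that may hold more than 1 cell, made up 8.99% of their group, against 1.89% of the Col3a1-low cells. The part of such droplets and of free RNA in these ratios was not tested, beyond the values with and without the 100 cells.

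Among the genes with the highest ratios to macrophages were a homeobox gene, muscle genes and a regulator of apoptosis. Hoxd10, a homeobox gene of limb and trunk patterning, had 389 UMIs (15.4 CPM) in Col3a1-low cells and 1.49 CPM in macrophages, or 0.286 CPM without the 100 cells. Pawr, an apoptosis regulator, was at 13.1 CPM against 0.837, a ratio of 15.7 (9.21 to 29.0). Ankrd1, a muscle ankyrin repeat protein and target of YAP, was at 77.5 CPM against 7.83, a ratio of 9.90 (8.29 to 11.9), and the ratio was 19.4 (14.85 to 25.7) without the 100 cells. Of 16 mesenchymal genes tested, 8 were at least 4-fold higher and 1 at least 4-fold lower, with a median log2 ratio of 2.05. The shares over all genes tested were 4.55% higher and 13% lower. Without the 100 cells, 10 were at least 4-fold higher, beside 8.48% of all genes. Tnnt2, a troponin of heart muscle, and Cryab, a small heat shock protein, were at 72.7 and 79.7 CPM in Col3a1-low cells and at 7.77 and 8.79 CPM in macrophages.

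The markers of other cell types were low in Col3a1-low cells. All 8 macrophage markers that did not enter the gates were at least 4-fold lower, with a summed level of 231 CPM against 34175. Apoe, a lipid carrier that macrophages secrete in quantity, was at 181 CPM against 24450, and its level per 10000 UMIs ran from 0 to 18.3 across the Col3a1-low cells with a median of 1.74. The invariant chain gene Cd74 was at 42.1 CPM against 12323. The 11 T and NK markers summed to 9.09 CPM, the 6 granulocyte markers to 1.38, the 6 B and plasma cell markers to 2.29 and the 7 endothelial markers to 19.6. Xist, the RNA that coats the inactive X chromosome, was at 1.34 CPM in Col3a1-low cells and 664.5 CPM in macrophages.

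Among the fibroblast markers, 1 gene held most of the signal. Dcn, encoding the small proteoglycan decorin, was at 1271.6 CPM, with thinned counts from 0 to 38, a median of 5 and 49 cells at 0. Col1a1, the main chain of type I collagen, was at 67.5 CPM, Lum at 4.54 CPM, and the 7 fibroblast markers other than the gate gene Col1a2 summed to 1438 CPM. Whether single cells of host fibroblasts passed the tumor gate was not tested, and the gate on Col1a2 left cells with fewer than 2 UMIs per 10000.

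Against the Col3a1-high tumor cells, matrix genes were lower and few genes were higher. Of 7363 genes tested, 215 (2.92%) were at least 2-fold lower in Col3a1-low cells and 19 (0.258%) at least 2-fold higher, and the median log2 ratio was -0.14. Divided by that median, an alternative added after seeing the data, 158 genes were at least 2-fold lower and 28 higher. The Col3a1-high group held 231 cycling cells. Against the other 499, 212 of 7270 genes (2.92%) were at least 2-fold lower and 83 (1.14%) higher, with a median log2 ratio of -0.09.

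Secreted matrix proteins were among the lower genes. Of 21 matrix genes other than the gate genes, 12 were at least 2-fold lower and 0 at least 2-fold higher, with a median log2 ratio of -1.11. Over all genes tested, 2.92% were lower and 0.258% higher, with a median of -0.14. Aspn, a leucine-rich proteoglycan, was at 0.790 CPM (20 UMIs) in Col3a1-low cells and 19.6 CPM in Col3a1-high cells. Ogn, of the same family, was at 4.43 against 34.4 CPM, and Cilp, a cartilage matrix protein, at 5.37 against 45.5 CPM. All 3 were below 50 CPM in both groups.

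The matrix genes Fn1, Col6a1, Postn and Sparc, more abundant in Col3a1-high cells than Aspn, Ogn and Cilp, differed by less. Fn1, encoding fibronectin, was at 365 CPM against 1152, a ratio of 0.317 (0.310 to 0.325), and its thinned counts had a median of 1 in Col3a1-low cells and 4 in Col3a1-high cells. Col6a1, a chain of type VI collagen, was at 248.6 CPM against 643, and Postn, the matricellular protein periostin, at 29.6 against 127. Sparc, a collagen-binding protein, was at 729 against 1210 CPM, a ratio of 0.602 (0.592 to 0.613). H19, an imprinted long non-coding RNA of fetal tissue, was at 55.2 CPM against 275 and at 330 CPM in the non-cycling Col3a1-high cells.

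Correlations with Col3a1 were computed across all tumor cells and across the Col3a1-low cells, in which the rule cut the range of Col3a1. Over counts thinned to 5000 UMIs, Spearman's rho with Col3a1 across 1685 tumor cells was 0.54 for Col6a1, 0.49 for Fn1 and 0.44 for Dcn, and across the 528 Col3a1-low cells it was 0.29, 0.17 and 0.22. For Ccnd1 it was -0.37 and -0.05, and for Tm4sf1 -0.32 and -0.15. These are descriptions across cells of 1 library, without a p-value, and the values of the 2 sets of cells cannot be compared because of that cut.

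Among the 19 genes that were at least 2-fold higher were the receptor genes Tnfrsf12a and Epha2 and the growth factor gene Hbegf. Of 15 genes on the growth factor list that were tested, 2 were at least 2-fold higher and 2 at least 2-fold lower. Their median log2 ratio was 0.14. Over all genes tested, 0.258% were higher and 2.92% lower, with a median of -0.14. Tnfrsf12a, the receptor of the cytokine TWEAK, was at 327 CPM (320 to 335) against 143, a ratio of 2.30 (2.21 to 2.39). Hbegf, a ligand of the EGF receptor, was at 41.9 CPM against 16.4, a ratio of 2.55 (2.29 to 2.86), and Epha2, an ephrin receptor, at 15.6 against 5.84. Plaur, the urokinase receptor, was at 48.4 CPM against 27.0, below the 2-fold limit. Against the Col3a1-high cells below the cycling limit, Hbegf had a ratio of 2.93 (2.55 to 3.38).

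Ankrd1 was at 77.5 CPM against 27.9, a ratio of 2.78 (2.56 to 3.03). Of 9 genes on the YAP list that were tested, 1, Ankrd1, was at least 2-fold higher and 0 lower, with a median log2 ratio of 0.14. Among all genes tested, 0.258% were higher and 2.92% lower, with a median of -0.14. Ccn1, another target of YAP, was at 54.6 CPM against 85.1, on the other side of 1. The list thus did not move in 1 direction. Klra4, a gene of the Ly49 receptor family of natural killer cells whose members share much sequence, was at 225 CPM against 97.1 and after thinning had 0 UMIs in 222 of the 528 cells. Hmga1, an architectural chromatin protein, was at 100.5 CPM against 41.5. The near-identical copy Hmga1b was at 11.97 against 4.63 CPM, and reads of these 2 genes could not be told apart with certainty. Hmga2, the other gene of that family, was at 98.0 against 89.7 CPM, a ratio of 1.09 (1.03 to 1.16).

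Wincr1, a long non-coding RNA gene, had the highest ratio, at 22.75 CPM against 7.01, a ratio of 3.25 (2.75 to 3.84). Krt16, a keratin of stressed epidermis, was next at 10.5 against 3.45 CPM, but 216 of its 266 UMIs came from 1 cell, and the level without that cell was 1.98 CPM. Myc, a growth-promoting transcription factor, was at 46.9 against 27.6 CPM, a ratio of 1.70 (1.55 to 1.87).

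Interferon-stimulated genes and antigen presentation genes were lower in Col3a1-low cells. All 24 interferon genes tested had ratios below 1, and 3 were at least 2-fold lower, beside 2.92% of all genes. Their median log2 ratio was -0.63 against -0.14 for all genes. Ifit1, an antiviral effector, was at 102 CPM against 202, and Cxcl9, a T cell chemokine, at 75.3 against 208. Cxcl10, a related chemokine, was at 906 CPM against 1242. All 15 genes of MHC class I presentation had ratios below 1, with a median of -0.48, and B2m was at 2444 against 3541 CPM with medians of 12 and 18 thinned UMIs per cell. Of 16 immediate early genes tested, 14 had ratios below 1 and 2 above, and 3 were at least 2-fold lower. Their median log2 ratio was -0.59, against -0.14 for all genes, and their summed levels were 4524 and 5117 CPM. Fos was at 106 against 250 CPM. Between Col3a1-low and cycling cells the median log2 ratio was 0.02 over 23 interferon genes, with 0 past 2-fold, against -0.07 for all genes. Summed markers of macrophages, dendritic cells, monocytes, granulocytes, B and plasma cells and endothelial cells were also lower in Col3a1-low than in Col3a1-high cells. Monocyte markers summed to 32.75 CPM against 76.39 and endothelial markers to 19.6 against 41.3. The 11 T and NK markers went the other way, at 9.09 CPM against 5.10. In Col3a1-low cells, 1 cell held 41 of 49 UMIs of Nkg7 and 20 of 34 of Cd3g. Mast cell and basophil markers (0.277 against 0.220 CPM) and Schwann cell and muscle markers (3.71 against 2.24 CPM) were also higher. The 2 macrophage markers tested that did not enter the gates had ratios below 1, with a median log2 ratio of -0.39. Over all 8 such markers the summed levels were 231 and 302.5 CPM. All 3 dendritic cell markers tested had ratios below 1, with a median of -0.60 and sums of 98.7 and 150.1 CPM over 9 markers. High doublet scores were found in 1.89% of Col3a1-low and 4.80% of Col3a1-high cells, and with such cells left out the medians were -0.65 for interferon genes and -0.49 for MHC class I genes. The part of free RNA of other cells in these values was not tested.

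**Figure D3:**
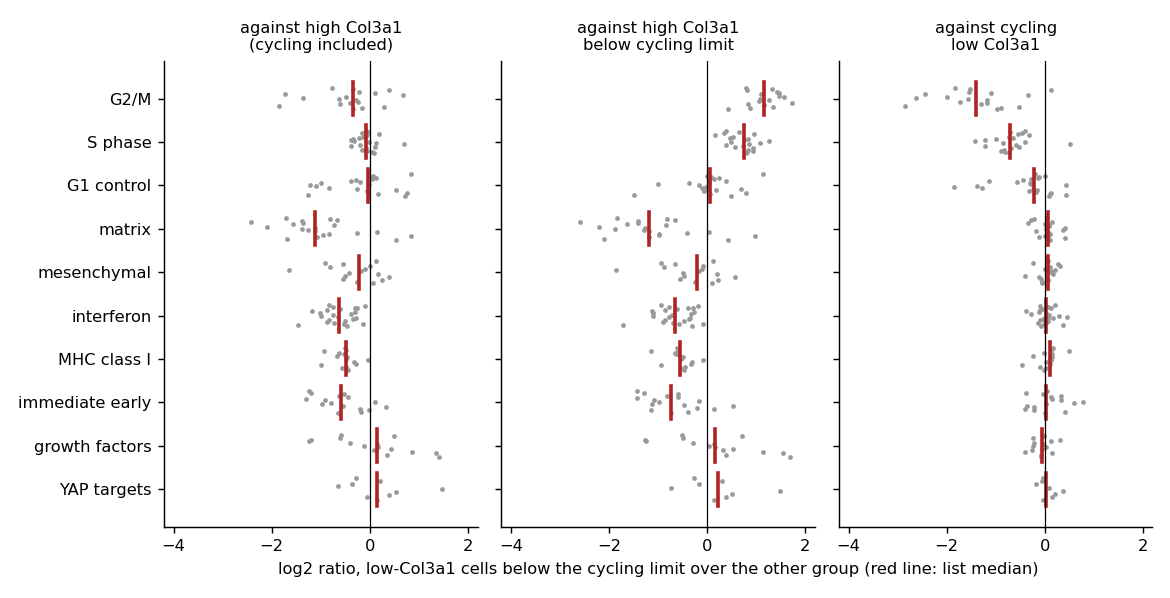
Log2 ratio of each listed gene (grey points) in Col3a1-low cells over Col3a1-high cells (left), over the Col3a1-high cells below the Top2a and Mki67 limit (middle) and over cycling cells (right), by gene group, with gate genes left out and the group's median as a red line. The median of the G2/M genes lies below 0 at left and right and above 0 in the middle, and the medians of the matrix, interferon and MHC class I genes lie below 0 in the first 2 comparisons.

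The transcripts of the cell cycle did not vanish below the limit on Top2a and Mki67. Against the Col3a1-high cells below the same limit, all 17 G2/M genes tested were higher, 12 of them at least 2-fold. Their median log2 ratio was 1.15. All 21 S phase genes were higher, 2 at least 2-fold, with a median of 0.75. Over all 7270 genes tested in this comparison, 1.14% were at least 2-fold higher, and the median log2 ratio was -0.09. Ube2c, which loads ubiquitin on mitotic proteins, was at 176 CPM (171 to 182) against 53.3, a ratio of 3.31 (3.08 to 3.56). Birc5, the chromosomal passenger survivin, was at 179 against 64.3 CPM, and Cdk1, the kinase that starts mitosis, at 79.2 against 45.6. The gate genes, which the rule used, were at 49.6 against 37.2 CPM for Top2a and at 21.3 against 12.5 CPM for Mki67, and nothing is read from them. The name non-cycling is thus a matter of the limit on Top2a and Mki67, since transcripts of the other G2/M genes were present in the Col3a1-low cells.

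Per cell, Cdk1 and Ube2c together had a median of 1.43 UMIs per 10000 in Col3a1-low cells, 0.466 in the Col3a1-high cells below the limit and 6.01 in cycling cells. Of the Col3a1-low cells, 51 of 528 (9.66%, 7.28% to 12.5%) reached the median of the cycling cells, and of the Col3a1-high cells below the limit 6 of 499 (1.202%, 0.443% to 2.60%). These exact binomial intervals treat the cells of 1 library as independent and say nothing of tumors or mice. The highest Col3a1-low cell had 48.7 UMIs per 10000 of the 2 genes.

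Against the cycling cells, genes of mitosis and histone genes were among those that were lower. Of 7105 genes, 204 (2.87%) were at least 2-fold lower and 5 (0.0704%) at least 2-fold higher. Of 18 G2/M genes besides the gate genes, 13 were at least 2-fold lower, with a median log2 ratio of -1.40, and of 36 histone genes 21, with a median of -1.43 and 1 gene at least 2-fold higher. Hist1h1b, a linker histone of S phase, was at 19.12 CPM against 189, and Ube2c at 176 against 581. S phase genes differed less, with 20 of 21 below 1, 3 at least 2-fold lower and a median of -0.70.

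The 5 genes that were at least 2-fold higher than in cycling cells were Hist1h2bc, Crabp2, Kdm5b, H19 and Krt16. Hist1h2bc, a histone gene, was at 118 CPM against 45.4, a ratio of 2.60 (2.43 to 2.78), unlike Hist1h1b. Crabp2, a retinoic acid binding protein, was at 34.25 against 15.6 CPM, and Kdm5b, a histone demethylase, at 14.6 against 6.86. H19 was at 55.2 against 27.2 CPM. Krt16 rested on the 1 cell named above. Genes with the lowest ratios included the granzymes Gzmc, Gzmd, Gzme, Gzmf and Gzmg, and over 96.4% of their UMIs in the cycling group came from 1 cell of 112046 UMIs, with 1058 of 1061 UMIs for Gzmg. Of 19 matrix genes, 0 were past 2-fold between the 2 groups, with a median log2 ratio of 0.07.

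Among the genes of G1 control, Ccnd1 was the most abundant of the list in Col3a1-low cells. Cdk4 was at 350 CPM, Ccnd2 at 85.3, Ccnd3 at 54.0, Cdk6 at 43.2 and Ccne1, encoding cyclin E1, at 31.9. Of the 7 genes of CDK inhibitors on the list, Cdkn2b was at 79.8 CPM, Cdkn1a (p21) at 32.5, Cdkn2d at 22.0, Cdkn1b at 15.7, Cdkn2c at 6.48, Cdkn2a at 5.25 and Cdkn1c at 0.672 CPM. Against cycling cells, 4 of 22 genes of the list were at least 2-fold lower and 0 higher, with a median log2 ratio of -0.21, beside 2.87% lower, 0.0704% higher and a median of -0.07 over all genes tested.

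Genes of the study's pathway were expressed at low to middle levels. Atp6v0a1, a subunit of the proton pump that the other pool targets, was at 7.23 CPM (6.22 to 8.36, 183 UMIs) in Col3a1-low cells, 6.20 (5.30 to 7.21) in cycling cells, 9.54 (8.42 to 10.8) in Col3a1-high cells and 14.3 (12.5 to 16.2) in macrophages. The first 2 intervals overlap. Tgfb1 was at 53.3 CPM against 60.01 in Col3a1-high cells and 168 in macrophages. Of 23 cholesterol genes tested against Col3a1-high cells, 22 had ratios below 1, 1 was at least 2-fold lower, and the median log2 ratio was -0.30, beside 2.92% lower and a median of -0.14 over all genes tested. Ch25h, which makes 25-hydroxycholesterol, was at 6.60 CPM against 13.9 in Col3a1-high cells. Cyp46a1, which makes 24-hydroxycholesterol, had 2 UMIs.

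Among the Col3a1-low cells themselves, the genes that varied most were Malat1, mitochondrial transcripts and chemokines. Over counts thinned to 5000 UMIs per cell, the ratio of variance to mean was 70.0 for Malat1, a nuclear long non-coding RNA, 44.7 for mt-Cytb and 17.01 for Cxcl10, against a median of 1.09 over 4701 genes. Malat1 had a median of 4 UMIs per cell, a highest count of 308 and 129 cells at 0. Cxcl10 had a median of 1 and a highest count of 84, and 185 cells had 0. Ccl2, a monocyte chemokine, had a median of 4 and a highest count of 66. Ccl5, a T cell chemokine, had 0 UMIs in 349 cells (66.1%), and of its 8343 UMIs before thinning the 26 cells with the highest counts held 58.6%. Spp1, encoding osteopontin, had 4867 UMIs before thinning, in 230 cells, of which 26 cells held 84.5%, and after thinning 449 cells had 0. After the same thinning, Lgals1 and S100a6 had 0 cells without a UMI.

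**Figure D4:**
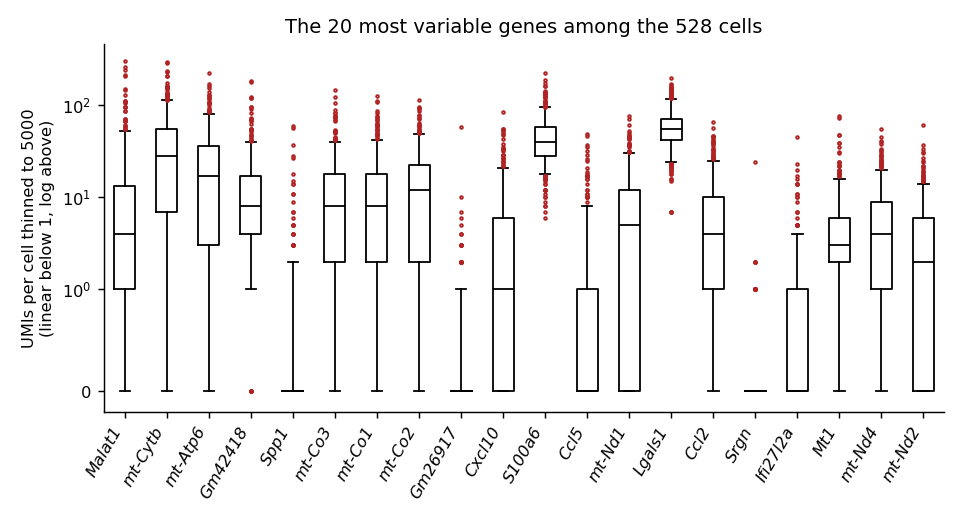
UMIs per cell of the 20 most variable genes in the 528 Col3a1-low cells, each cell thinned to 5000 UMIs, on an axis that is linear below 1 and logarithmic above. Boxes show quartiles and medians, whiskers the range from the lowest to the highest 5% of cells, and dots the cells outside it. Spp1 has 449 cells at 0 and single cells at up to 59 UMIs.

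Principal components were computed from log-transformed counts that were not thinned. The first component held 9.04% of the variance over 6669 genes. It was led by mt-Cytb, mt-Atp6 and mt-Nd1 at one end and by Ly6c1, Ly6a and Tmsb10 at the other. Its Spearman's rho with the mitochondrial share of UMIs was 0.66 and with depth 0.44. The second component (5.54%) ran from Malat1, mt-Co1 and Fn1 to Ccl2, Tm4sf1 and Tuba1b. The third (2.79%) was led at one end by glycolysis genes, Pgam1, Pgk1, Tpi1 and Ldha, and at the other by mt-Atp6, mt-Nd1 and Cxcl10.

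Cells with few mitochondrial UMIs were more common in this group than in the others. Under 0.5% of UMIs were mitochondrial in 141 of 528 Col3a1-low cells (26.7%, 22.98% to 30.7%), in 16.2% of cycling cells (12.8% to 20%), in 12.2% of Col3a1-high cells (9.91% to 14.8%) and in 12.2% of macrophages (10.4% to 14.1%). The 141 cells had a median depth of 31546 UMIs against 51039 in the other 387 and a median of 1.26 Malat1 UMIs per 10000 against 12.2. Ube2c was at 316 CPM in them against 142, Cdk1 at 131 against 66.5 and Ccl5 at 544 against 277, whereas Ccnd1 was at 481 against 655. Top2a and Mki67, which the gate holds low, had ratios of 1.08 (0.934 to 1.23) and 0.892 (0.708 to 1.11).

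**Figure D5:**
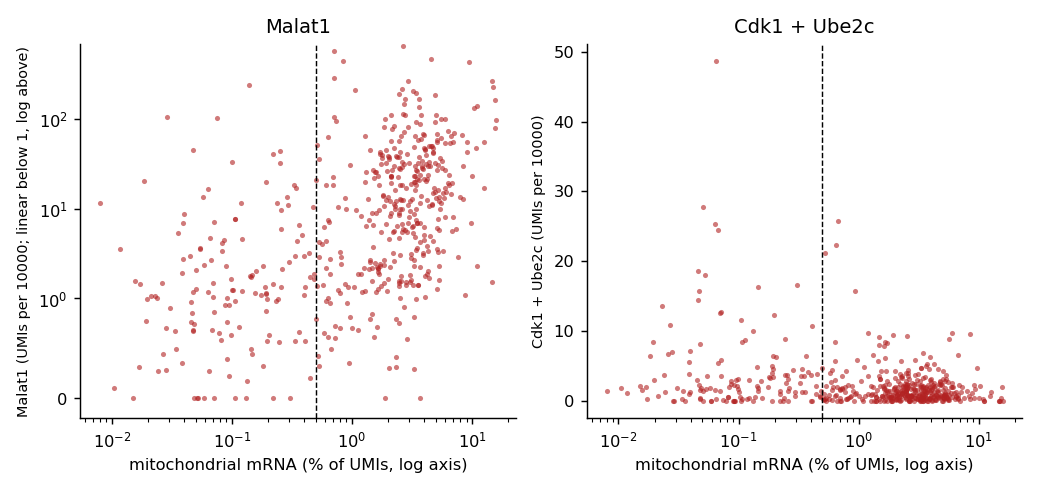
Malat1 (left, linear below 1 and logarithmic above) and Cdk1 plus Ube2c (right, linear) in UMIs per 10000 against the mitochondrial share of UMIs (log axis) in each of the 528 Col3a1-low cells, with a dashed line at 0.5%. Cells left of the line have less Malat1, and 30 of these 141 cells have at least 6.01 UMIs of Cdk1 and Ube2c, against 21 of the other 387.

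Of the 141 cells, 30 (21.3%, 14.8% to 29.0%) reached the cycling cells' median of Cdk1 and Ube2c, and of the other 387 cells 21 did (5.43%, 3.39% to 8.18%). With cells under 0.5% left out of both groups, a setting chosen after seeing the data, all 17 G2/M genes were again higher than in the Col3a1-high cells below the limit, 11 of them at least 2-fold, with a median log2 ratio of 1.201 and a Ube2c ratio of 2.99. The counts of genes past the folds were then 20 higher and 188 lower against all Col3a1-high cells and 6 higher and 214 lower against cycling cells. The part of cell quality in the mitochondrial and Malat1 values was not tested.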

How the data were processed

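UMI counts per gene and cell, without normalization, were deposited by the authors, who made them with Cell Ranger (5.0.1 per the file headers, V3 per the methods) on GRCm38/mm10. The control pool of 5 tumors was 1 library of 5307 cells and 106631000 UMIs over 32285 genes. The members and gene lists were chosen with earlier results of these data known. Cells were grouped by limits on measured genes, UMIs were summed per group and scaled to CPM, and genes with at least 10 CPM in either of 2 groups were compared. A gene was counted as higher or lower past 4-fold against macrophages and past 2-fold between tumor cells. No test was run, since 1 library gives no replicates. Named genes were the markers, the gate genes, the listed genes, the 10 highest and 10 lowest ratios of each comparison, the 20 most abundant and 20 most variable genes and the leading genes of 3 principal components. Ratios of variance to mean were computed after each cell was thinned to 5000 UMIs, and principal components from counts that were not thinned. Doublet scores came from 2 simulated doublets per cell, and high-scoring cells were kept except in 1 alternative. Gene positions came from GENCODE M21 (644 of 644 named genes matched by Ensembl identifier) and upstream sequences from RefSeq (GRCm38.p6). Alternatives varied the limits, the filter on low genes, the scaling and the groups. The steps were tested on simulated data and were run with scikit-learn 1.9.0 and matplotlib 3.10.9 for components and plots, scipy 1.17.1 for intervals, and pandas 2.3.3 and numpy 2.4.6 under Python 3.11.15.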

Additional observations from a re-analysis of the deposited data

How the results depend on the processing

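No paired analysis was possible because the data are 1 library without replicates, and for the same reason no replicate could be left out. Of 92 counts of cells or genes under other settings, 77 stayed within 1.5 times the reported value. The number of Col3a1-low cells was 330 with a Col3a1 limit of 5. Genes at least 4-fold higher than in macrophages numbered 705 with high doublet scores removed, 706 without the macrophages that held tumor UMIs, 580 with levels averaged over cells and 777 with a filter of 1 CPM, under which 1822 were lower. Against Col3a1-high cells, 74 genes were higher and 376 lower with a Col3a1 limit of 20, 73 were higher and 629 lower with the filter of 1 CPM, 341 were lower with levels averaged over cells, and 83 were higher against the cells below the cycling limit. Against cycling cells, 10 were higher with levels averaged over cells, and 49 were higher and 318 lower with the filter of 1 CPM. Signs turned in 16 cases among the values checked, given as log2 ratios. Against the Col3a1-high cells below the cycling limit these were Aurkb 1.07, Cenpf 1.11, Esco2 0.54, Hist1h1b 0.81, Hist2h2ac 0.50, Mki67 0.77, Nusap1 1.25 and Top2a 0.41, since that alternative takes out the cycling cells. Krt16 became -1.09 against Col3a1-high and -2.41 against cycling cells with a Top2a and Mki67 limit of 1. With a limit of 4, Gzmc became 4.77, Gzmd 6.09, Gzme 5.76, Gzmf 6.04 and Gzmg 8.18 against cycling cells. At the limit of 2, over 96.4% of the UMIs of these granzymes in cycling cells came from 1 cell. Of the 266 UMIs of Krt16 in Col3a1-low cells, 216 came from 1 cell. The median of the Wnt list against macrophages became 0.0888 with the filter of 1 CPM. The cause was not tested. Levels of the 4 whole groups rest on at least 16729075 UMIs per group, and levels in parts of a group rest on fewer UMIs than the whole group. The floor of 3 UMIs was 0.119 CPM in Col3a1-low cells.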

Other observations

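A few Col3a1-low cells carried transcripts of other cell types. The 49 UMIs of Nkg7, a gene of cytotoxic granules, included 41 from 1 cell, and the same cell, of 53022 UMIs, held 20 of 34 UMIs of Cd3g and 13 of 24 UMIs of Cd3d, both chains of the T cell receptor complex. Without it, Nkg7 was at 0.317 CPM, Cd3g at 0.554 CPM and Cd3d at 0.436 CPM. Of the kept cells, 258 were neither tumor cells nor met the macrophage limit, and 2 met both.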
